A study of Mus musculus with 9 samples.

Results

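The genes described here encode 8 proteases that mast cells and basophils store in their granules. They were chosen by name as the rows of the deposited table with the symbols Cpa3, Cma1, Mcpt2, Mcpt4, Mcpt8, Tpsb2, Tpsab1 and Prss34, and all 8 are among its 24421 symbols. RNA sequencing was carried out on mouse cells grown from bone marrow depleted of lineage-positive cells, in interleukin 3, interleukin 6 and stem cell factor for 5 days. The wild-type (WT) group was C57BL/6 cells given vehicle. The mutant groups were cells of Tet2-/-Flt3ITD mice on a C57BL/6 background, which lack the DNA demethylase gene Tet2 and carry an internal tandem duplication in the receptor kinase gene Flt3, given vehicle or SHP099 for 24 h. That compound blocks SHP2, a phosphatase encoded by Ptpn11 that passes receptor signals on to the RAS pathway. There were 3 libraries a group. The mutant cells came from individual mice, and for WT cells the labels name no individual mice. All cultures thus share the same cytokines, WT cells were not given SHP099, and the animals' age is not given in the sources used here.

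Mast cells and basophils fill their secretory granules with proteases bound to the proteoglycan serglycin, and release them when the IgE receptor is cross-linked. Chymases and tryptases are serine proteases that cut after aromatic and basic residues respectively, and carboxypeptidase A3 trims residues from the C-terminal end of peptides. Which proteases a mouse mast cell makes differs between connective tissue, where Cma1, Mcpt4, Tpsb2 and Cpa3 are typical, and mucosa, where Mcpt1 and Mcpt2 are. Mcpt8 and Prss34 are basophil genes. Interleukin 3 and stem cell factor are the growth factors in which mouse basophils and mast cells are raised from bone marrow.

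The genes lie in 3 places in GRCm38, the assembly also called mm10, by GENCODE M21. Cpa3, a metalloprotease gene with 11 exons, is on chromosome 3 from 20215620 to 20242181. The chymase locus on chromosome 14 holds Cma1 (55941451 to 55944675), Mcpt2 (56042041 to 56044642), Mcpt4 (56059629 to 56062313) and Mcpt8 (56082166 to 56085273), each with 5 exons. The tryptase locus on chromosome 17 holds Prss34 (25298394 to 25300165), Tpsab1 (25343245 to 25345562) and Tpsb2 (25366305 to 25369098). Tpsab1 is a protein-coding gene in GENCODE M21 and a transcribed pseudogene in RefSeq's annotation of C57BL/6J, the strain in which its product is known to be missing. Coding sequences of the chymase locus are related. Mcpt2 and Mcpt4 are identical at 78.7% of aligned positions, Mcpt4 and Mcpt1 at 86.4%, and Mcpt2 and Mcpt1 at 80.4%, while Mcpt8 is at 53.5% with Mcpt2. No run of 50 bases is shared among the longest coding transcripts of Cma1, Mcpt2, Mcpt4, Mcpt8 and Mcpt1. Mcpt4 shares 5.48% of its 50-base runs with Cma2 and 0.661% with Mcpt9, which had at most 11 and 3 counts in any library.

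RefSeq's table (GRCm38.p6) held promoters of 5 of the 8 genes. The 120 bases before the RefSeq start are shown for these 5. Capitals mark AGATAA or TGATAA, letters that GATA factors can bind, and TATAAA, the letters of the TATA box, searched on both strands. Cpa3 covers chr3:20242182-20242301 on the minus strand, Cma1 chr14:55944676-55944795 on the minus strand, Mcpt4 chr14:56062311-56062430 on the minus strand, Mcpt8 chr14:56085198-56085317 on the minus strand and Prss34 chr17:25298274-25298393 on the plus strand, each written 5′ to 3′.
Cpa3: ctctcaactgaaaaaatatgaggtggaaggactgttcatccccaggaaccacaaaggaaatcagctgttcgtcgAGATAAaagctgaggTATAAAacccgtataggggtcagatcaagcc
Cma1: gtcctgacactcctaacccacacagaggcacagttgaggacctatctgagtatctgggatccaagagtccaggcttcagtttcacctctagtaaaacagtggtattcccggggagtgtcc
Mcpt4: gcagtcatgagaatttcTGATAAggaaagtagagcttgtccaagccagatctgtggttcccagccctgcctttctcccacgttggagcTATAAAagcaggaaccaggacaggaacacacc
Mcpt8: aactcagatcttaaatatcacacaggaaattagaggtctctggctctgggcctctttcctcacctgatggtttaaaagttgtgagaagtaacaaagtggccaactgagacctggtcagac
Prss34: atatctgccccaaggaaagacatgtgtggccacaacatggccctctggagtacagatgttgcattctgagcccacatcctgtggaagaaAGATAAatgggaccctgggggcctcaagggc
The GATA letters began 46 bases before the start in Cpa3, 103 in Mcpt4 and 31 in Prss34, and none were found in the windows of Cma1 and Mcpt8. GENCODE M21 places the start of Mcpt8 at 56085273, inside its window. Most of that stretch thus lies within the gene by GENCODE and is not comparable with the other windows. TATAAA began 31 bases before the start in Cpa3 and 32 in Mcpt4. Of 32851 RefSeq promoters, 7.63% held AGATAA or TGATAA in the same window and 6.34% held TATAAA. Over the whole 300 bases the E-box letters CATGTG, which MITF can bind, were found in Prss34 alone of these 5, against 14.2% of all promoters. CACGTG (7.15% of all promoters) and the ETS letters CCGGAA (14.9%) were found in none of the 5. A match of letters is not a binding site.

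Libraries held 27242168 to 40681117 counts in WT cells, 30982845 to 41567622 in mutant vehicle cells and 41053983 to 45810089 in SHP099-treated cells. As a check of the labels, Tet2 lay between 31.8 and 34.8 CPM (counts divided by the scaled library size, the usual per-library unit) in WT libraries, between 14.7 and 17 CPM in mutant vehicle libraries and between 10.9 and 13.2 CPM in SHP099 libraries. SHP099 replicate 3 had 4.33% of its counts on the ribosomal RNA precursor Rn45s, against 0.276% to 0.734% in the other 8 libraries.

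Mast cell and basophil transcripts were present in every library. All 10 genes listed as basophil defining were detected in every group, with a summed level of 1158 to 1376 CPM in WT libraries, 816 to 1015 CPM in mutant vehicle libraries and 976 to 1193 CPM in SHP099 libraries. That list holds the transcription factor genes Gata2 and Cebpa, at 287 ± 38.1 and 271 ± 22.3 CPM in WT libraries. It also shares Fcer1a, Ms4a2, Hdc and Il1rl1 with the mast cell list. In WT libraries Il1rl1, Hdc, Ms4a2 and Fcer1a stood at 226 ± 25.2, 220 ± 15, 114 ± 15.5 and 28.9 ± 7.44 CPM. Neither this sum nor that of the mast cell list thus measures transcripts of its cell type alone. The 12 mast cell defining genes summed to 793 to 1018 CPM, 542 to 658 CPM and 702 to 766 CPM. Of these, the mast cell receptor genes Mrgprb1 and Mrgprb2 and the signalling regulator gene Rgs13 had no count in any mutant vehicle library and at most 3 in any WT library. Those transcripts of connective tissue mast cells were therefore at or near 0, while Kit, the stem cell factor receptor gene, stood at 160 ± 20.4 CPM (SD, n = 3) in WT libraries against 155 ± 13.5 CPM in the mutant vehicle group. In bulk libraries fewer cells of a type and less RNA per cell cannot be told apart.

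Together the 8 genes took 0.192% to 0.216% of the counts in WT libraries, 0.093% to 0.139% in mutant vehicle libraries and 0.14% to 0.18% in SHP099 libraries. Levels of different genes can be compared only per length, here as CPM per kilobase of the longest coding transcript. On that scale the basophil gene Mcpt8 had the highest mean in each group, at 799 ± 62.6 in WT, 570 ± 144 in mutant vehicle and 696 ± 162 in SHP099-treated cells. Cpa3 came next, at 536 ± 20.3, 288 ± 48.7 and 491 ± 46.5 CPM per kilobase, followed by Prss34, at 322 ± 28.3, 200 ± 50.8 and 245 ± 56.5. In WT cells the ranges of these 3 genes over libraries did not overlap. In mutant vehicle cells the ranges of Cpa3 and Prss34 did, at 232 to 324 and 143 to 239 CPM per kilobase.

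The mast cell chymases and tryptases came below these 3. In WT cells Cma1 stood at 95.7 ± 8.62 CPM per kilobase, Tpsb2 at 31.9 ± 6.62, Mcpt2 at 31.6 ± 3.47, Mcpt4 at 8.41 ± 2.8 and Tpsab1 at 1.1 ± 0.27. Tpsb2 and Mcpt2 did not differ beyond their spread there. In mutant vehicle cells Cma1, Mcpt2 and Tpsb2 lay at 19.5 ± 4.89, 11.5 ± 6.12 and 9.96 ± 2.52 CPM per kilobase, and the range of Mcpt2 overlapped those of both neighbours. In SHP099-treated cells Mcpt2 took the fourth place, at 40.5 ± 12.9, with a range that overlapped that of Cma1 at 33.8 ± 9.4. Tpsb2 followed at 14.7 ± 4.63, Mcpt4 at 4.82 ± 2.41 and Tpsab1 at 0.129 ± 0.0519 CPM per kilobase.

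**Figure D1:**
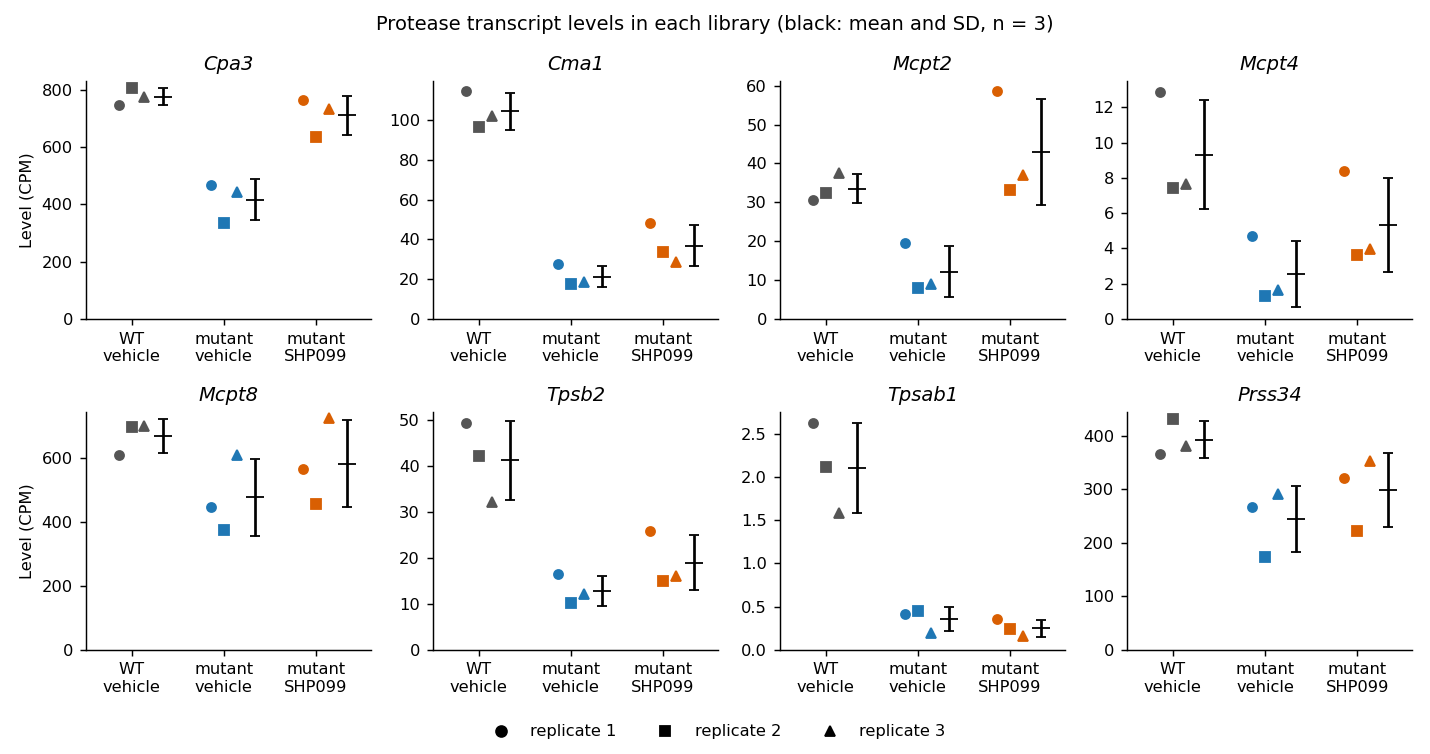
Level of each protease gene in CPM on scaled library sizes (vertical axes, linear and starting at 0) in the 3 WT vehicle, 3 mutant vehicle and 3 mutant SHP099 libraries. Symbols give the replicate number and black bars the mean and SD. Every mutant vehicle library lies below every WT library in 7 panels, and for Mcpt8 mutant vehicle replicate 3 lies within the WT range.

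Between genotypes the comparison asks how the proteases stand in mutant cells before the inhibitor. All 8 had a lower mean in mutant than in WT vehicle cells, and 7 passed the test (edgeR quasi-likelihood, Benjamini-Hochberg adjusted p under 0.05 over 13270 genes). Of all genes tested, 31.6% were called, 14.7% lower and 16.9% higher. For these 7 no mutant library reached the lowest WT library, as for 20.5% of all genes, and above for none, against 24.6%. The median log2 fold change was -1.58 over the 8 genes and 0.02 over all genes. All 8 passed the filter on low counts, which asks for 0.246 CPM in 3 libraries. The level was reached in all 9 libraries by 7 of the genes, and by Tpsab1 in 3 WT, 2 mutant vehicle and 1 SHP099 library. Leaving Tpsab1 aside, 6 of 7 were lower, with a median of -1.48.

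Tpsab1, Cma1, Mcpt4 and Tpsb2 had the largest fold differences of the 8. Cma1, a chymase gene whose product in the mouse cuts like an elastase, stood at 115, 96.4 and 102 CPM in the WT libraries and at 27.4, 17.6 and 18.8 CPM in the mutant ones. The highest mutant library was thus far below the lowest WT library, and the log2 fold change was -2.30 ± 0.21 (SE; edgeR adjusted p = 0.000216). The tryptase gene Tpsb2 stood at 49.2, 42.1 and 32.2 CPM in WT and at 16.4, 10.1 and 12 CPM in mutant vehicle libraries, also without overlap (-1.69 ± 0.25; edgeR adjusted p = 0.00132). The chymase gene Mcpt4 was low, with 451, 206 and 318 counts in WT and 148, 54 and 60 counts in mutant vehicle libraries, or 12.9, 7.41 and 7.64 CPM and 4.68, 1.29 and 1.64 CPM. Replicate 1 was the highest of its group on both sides, and the groups did not overlap (-1.91 ± 0.49; edgeR adjusted p = 0.016). Without mutant vehicle replicate 1 it was -2.67 ± 0.44 (adjusted p = 0.0048). The Mcpt4 call was lost without WT replicate 1 (adjusted p = 0.054) and without mutant vehicle replicate 3 (0.059), in edgeR fits of the other 8 libraries. Tpsab1 fell from 92, 59 and 66 counts to 13, 19 and 7 (log2 fold change -2.57 ± 0.35; edgeR adjusted p = 0.00101), at levels of 2.63, 2.12 and 1.59 CPM against 0.411, 0.453 and 0.192 CPM.

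Cpa3 and Mcpt2 had smaller fold estimates, though that of Mcpt2 overlapped those of Tpsb2 and Mcpt4 within the SE. Cpa3 stood at 749, 808 and 774 CPM in WT and at 469, 337 and 445 CPM in mutant vehicle libraries, a spread within groups that was small beside the difference (-0.90 ± 0.11; edgeR adjusted p = 0.000762). Mcpt2, the mucosal chymase gene, stood at 30.5, 32.5 and 37.6 CPM in WT and at 19.6, 7.89 and 8.95 CPM in mutant vehicle libraries (-1.48 ± 0.33; edgeR adjusted p = 0.00842). Mutant replicate 1 was well above the other mutant libraries and still below the WT ones.

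Among the 8, the basophil genes Mcpt8 and Prss34 had the smallest fold estimates, though that of Prss34 overlapped that of Cpa3 within the SE. Of the listed basophil defining genes 7 of 10 were lower in mutant cells (median -0.64), and of the mast cell defining genes 5 of 9 tested (median -0.49). None of either list was higher, against 14.7% of all genes lower and 16.9% higher. Prss34, a tryptase-like protease gene, stood at 366, 432 and 381 CPM in WT and at 267, 174 and 292 CPM in mutant vehicle libraries, without overlap (-0.69 ± 0.20; edgeR adjusted p = 0.027). That call was lost without WT replicate 2 (adjusted p = 0.0855), WT replicate 3 (0.052) or mutant vehicle replicate 2 (0.059). Mcpt8, a granzyme-like protease gene, stood at 608, 698 and 699 CPM in WT and at 446, 374 and 609 CPM in mutant vehicle libraries. Replicate 3 of the mutants lay within the WT range, and the difference did not pass (-0.49 ± 0.19; edgeR adjusted p = 0.076). Mcpt8 passed without mutant vehicle replicate 3 (-0.72 ± 0.17; adjusted p = 0.021) and without SHP099 replicate 3 (adjusted p = 0.044). Whether the fold of Mcpt8 and Prss34 differs from that of the mast cell genes was not tested.

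**Figure D2:**
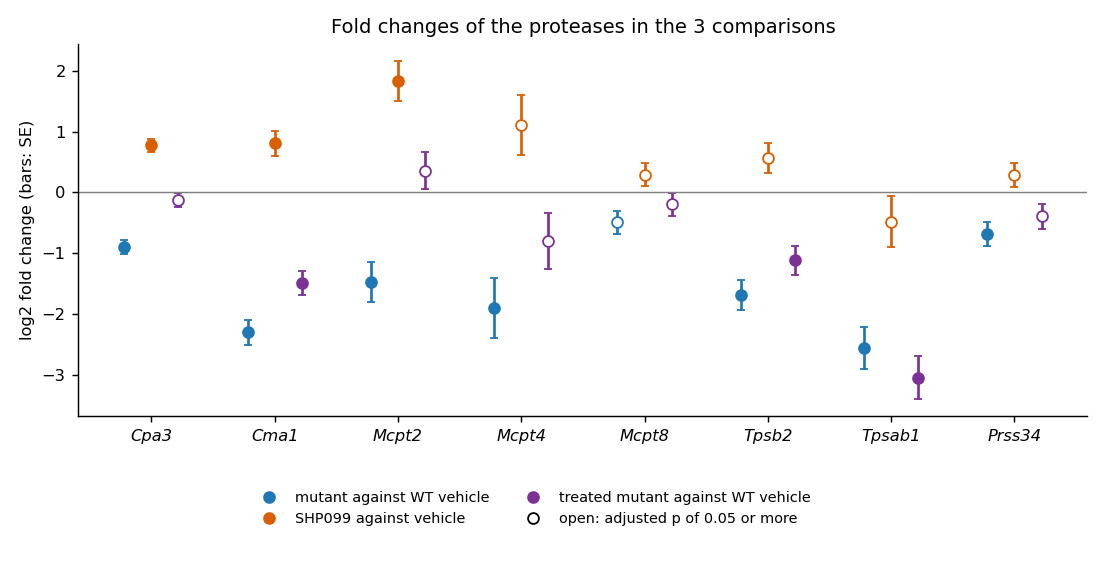
Log2 fold change with its SE (vertical axis) of each of the 8 genes in the 3 comparisons, from the edgeR fit of all 9 libraries. This fit did not pair the cultures. Filled points passed an adjusted p of 0.05. The blue points, mutant against WT vehicle, are all below 0, and the orange points, SHP099 against vehicle, are above 0 except for Tpsab1.

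Without pairing of the cultures, 3 of the 8 genes were called higher in mutant cells after 24 h of SHP099. They were Mcpt2, Cpa3 and Cma1, and none was called lower. Among all genes 21.8% were called, 8.81% higher and 13% lower. Every SHP099 library lay above every vehicle library for these 3, as for 18.3% of all genes, and below for none, against 22.4%. The median log2 fold change was 0.67 over the 8 genes and 0.00 over all genes, and 7 of the 8 fold changes were above 0. Same-numbered mutant cultures are taken as pairs, by the check described under the processing. That check does not show what the members of a pair have in common. With the pairs as a block in edgeR, 7 of the 8 were called higher, against 12.5% of all genes. The proteases have transcripts of 836 to 1928 bases, and of the 2726 other tested genes in that length range 16.3% were called higher with SHP099 and 3.01% lower. With a length and GC trend removed 2 of the 8 were called higher without the block, against 7.56% of all genes, and 4 with it, against 11.9%.

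Mcpt2 had the largest fold of the 8. It stood at 19.6, 7.89 and 8.95 CPM with vehicle and at 58.6, 33.2 and 37.1 CPM with SHP099, so each treated culture had 2.98, 4.2 and 4.14 times the level of its vehicle partner. The groups did not overlap (log2 fold change 1.84 ± 0.33; edgeR adjusted p = 0.0043), and replicate 1 was the highest in both. Cpa3 went from 469, 337 and 445 CPM to 764, 635 and 733 CPM, or 1.63, 1.89 and 1.65 times the vehicle level within pairs. Its fold change was 0.77 ± 0.11 (edgeR adjusted p = 0.0018), and the call held in all 17 alternatives, as that of Mcpt2 did. Cma1 went from 27.4, 17.6 and 18.8 CPM to 48.3, 33.7 and 28.6 CPM, with ratios of 1.77, 1.91 and 1.53 (0.80 ± 0.20; edgeR adjusted p = 0.021). The highest vehicle library and the lowest SHP099 library were close. The Cma1 call was lost without mutant vehicle replicate 2 (adjusted p = 0.061), mutant vehicle replicate 3 (0.067) or SHP099 replicate 1 (0.052), and with the length and GC trend removed (0.065).

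Mcpt4 and Tpsb2 were higher with SHP099 in each pair, though replicate 1 stood so far above the others that the groups overlapped. Mcpt4 went from 148, 54 and 60 counts to 381, 154 and 154 counts, or from 4.68, 1.29 and 1.64 CPM to 8.41, 3.65 and 3.96 CPM. Its fold change of 1.11 ± 0.49 did not pass (edgeR adjusted p = 0.14), and with the pairs as a block it was 1.16 ± 0.24 (adjusted p = 0.0066). Without mutant vehicle replicate 1 it was 1.87 ± 0.44 (adjusted p = 0.025), and without SHP099 replicate 1 it was 0.63 ± 0.49 (0.416). Mcpt4 was not called in 14 of the 17 alternatives. Tpsb2 went from 16.4, 10.1 and 12 CPM to 25.8, 14.9 and 16 CPM (0.57 ± 0.25; edgeR adjusted p = 0.13), and in the blocked fit it passed (0.55 ± 0.14; adjusted p = 0.017). With the trend also removed, the blocked adjusted p was 0.022 for Mcpt4 and 0.051 for Tpsb2.

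Among the 8, the basophil genes Mcpt8 and Prss34 had the smallest positive fold estimates, though both overlapped that of Tpsb2 within the SE. Of the listed basophil defining genes 3 of 10 were called higher (median 0.22), and of the mast cell defining genes 3 of 9 tested (median 0.45). None of either list was lower, against 8.81% of all genes higher and 13% lower. Mcpt8 went from 446, 374 and 609 CPM to 564, 457 and 725 CPM, and Prss34 from 267, 174 and 292 CPM to 321, 221 and 354 CPM. Groups overlapped for both genes, since replicate 3 was the highest and replicate 2 the lowest with and without the drug. Within pairs, however, the ratios were alike, at 1.27, 1.22 and 1.19 for Mcpt8 and 1.2, 1.27 and 1.21 for Prss34. Neither passed without the block (0.29 ± 0.19 and 0.29 ± 0.20; edgeR adjusted p = 0.31 and 0.34). With the block both did (0.29 ± 0.06 and 0.30 ± 0.06; adjusted p = 0.0056 and 0.006), and with the trend also removed neither did (0.081 and 0.06). Tpsab1 was the exception in sign, at 13, 19 and 7 counts with vehicle and 16, 10 and 6 counts with SHP099. The difference did not pass (-0.48 ± 0.42; edgeR adjusted p = 0.455), at counts of at most 19 in a library.

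**Figure D3:**
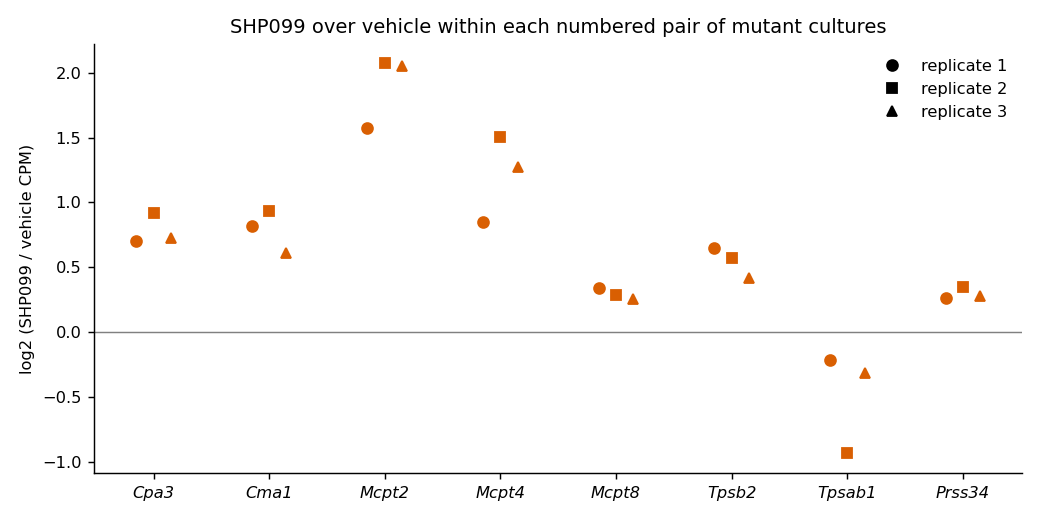
Log2 ratio of the SHP099 to the vehicle level (vertical axis, from CPM) within each numbered pair of mutant cultures, for the 8 genes. The 3 points of Mcpt8 and of Prss34 lie close together between 0.25 and 0.35, those of Mcpt2 between 1.58 and 2.07, and those of Tpsab1 are the only ones below 0.

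The comparison of SHP099-treated mutant with untreated WT cells joins the effects of genotype and drug, and shares its libraries with both other comparisons. In it Cma1, Tpsb2 and Tpsab1 were lower, 3 of the 8, and none was higher, against 31.7% of all genes called, 16.3% lower and 15.4% higher. Leaving aside Tpsab1, which reached the filter's level in 1 SHP099 library, 2 of 7 were lower. The log2 fold changes were -1.50 ± 0.20 for Cma1, -1.12 ± 0.24 for Tpsb2 and -3.05 ± 0.36 for Tpsab1 (edgeR adjusted p = 0.00091, 0.0076 and 0.00055). Cma1 stood at 36.9 ± 10.2 CPM (SD, n = 3) in treated mutant and 104 ± 9.39 CPM in WT cells. Cpa3, at 711 ± 67.4 CPM against 777 ± 29.4 CPM, and Mcpt2, at 42.9 ± 13.7 CPM against 33.5 ± 3.68 CPM, had overlapping groups and did not pass (-0.13 ± 0.11 and 0.36 ± 0.31; edgeR adjusted p = 0.415 and 0.405). Mcpt8 (-0.20 ± 0.19) overlapped too and did not pass, and neither did Mcpt4 (-0.80 ± 0.46). Every treated library lay below every WT library for Prss34, as for 23.5% of all genes and as for Cma1, Tpsb2 and Tpsab1, without passing the test (-0.40 ± 0.20; edgeR adjusted p = 0.16). These misses do not show that the levels were the same.

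The make-up of the protease transcripts also differed by group. Cma1 took 4.55% to 5.93% of the counts of the 8 genes in WT libraries, 1.35% to 2.19% in mutant vehicle libraries and 1.51% to 2.7% in SHP099 libraries. Mcpt2 took 1.53% to 1.85%, 0.645% to 1.57% and 1.95% to 3.27%, so with SHP099 its share in each library was above that in every WT library. Mcpt8 took 31.4% to 34.3% in WT and 35.6% to 43.9% in mutant vehicle libraries, the reverse order of its level. These shares are descriptive, since a fall of some genes raises the share of the others.

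**Figure D4:**
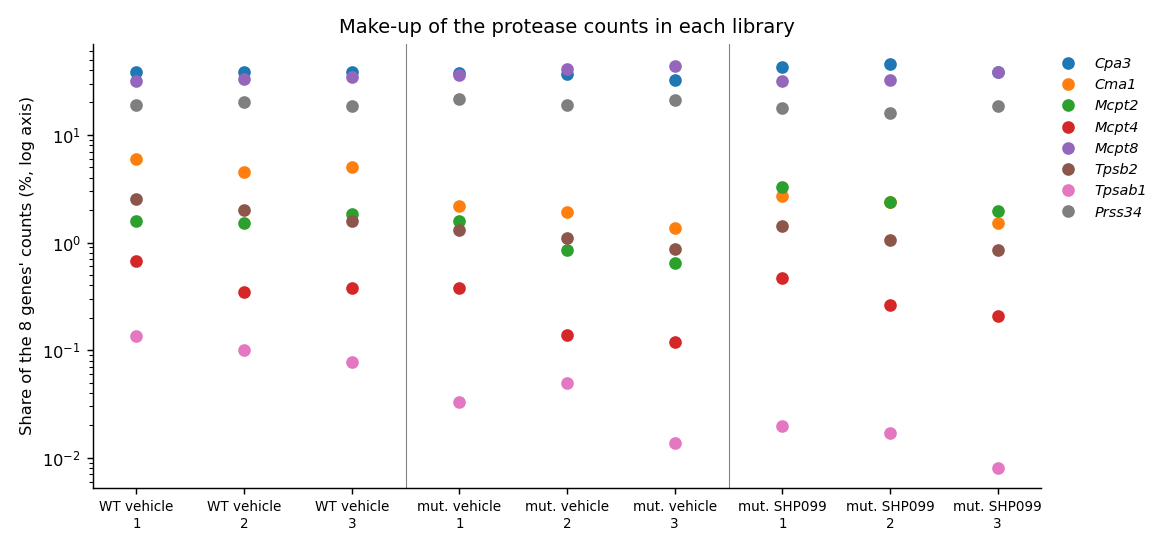
Share of each gene in the summed counts of the 8 genes (vertical axis, percent, log scale) in each of the 9 libraries, grouped by vertical lines. Cma1, Tpsb2 and Tpsab1 have lower shares in the mutant libraries than in the WT libraries, and Mcpt2 has its highest shares in the SHP099 libraries.

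Within the mutant group the cultures differed in a way that held with and without the drug. Replicate 1 was the highest for Cpa3, Cma1, Mcpt2, Mcpt4 and Tpsb2 both with vehicle and with SHP099, while replicate 3 was the highest for Mcpt8 and Prss34 in both. Across all 9 libraries the log2 CPM of Mcpt8 and Prss34 had a Pearson correlation of 0.927, that of Cma1 and Tpsb2 0.975, and that of Mcpt2 and Tpsab1 0.24. These values describe 9 libraries that share their groups. By the same measure, among 9619 genes outside the 8 with at least 5 CPM, the 3 most similar patterns were found for each protease. For Cpa3 they were Cd55 (0.972), Nat9 (0.968) and Rnf128 (0.962). For Cma1 they were Pip4k2c (0.987), R3hdm4 (0.981) and Alox5 (0.977). For Mcpt2 they were Nat9 (0.974), Ing4 (0.95) and Dctn2 (0.943). For Mcpt4 they were Rnf167 (0.965), Sgk1 (0.963) and Fbxo10 (0.962). Mcpt8 was most like Cyp4f18 (0.951), Inpp4b (0.943) and Homer2 (0.943). Tpsb2 was most like Tcp11l2 (0.989), Anxa11 (0.989) and Spata13 (0.986). Tpsab1 was most like Map4k1 (0.985), Ehbp1l1 (0.978) and Inpp5b (0.977). Prss34 was most like C5ar2 (0.959), Dtnb (0.956) and Oaf (0.944). They say nothing of shared function or control.

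Relatives in the same loci were mostly too low to test. Of 21 listed relatives 19 are in the table and 6 passed the filter on low counts. In mutant vehicle cells 4 of the 6 were lower than in WT, namely the tryptase gene Tpsg1 (-1.95 ± 0.24), the granzyme gene Gzmb (-1.47 ± 0.20), the pseudogene Mcpt-ps1 (-1.31 ± 0.36) and the mucosal chymase gene Mcpt1 (-1.78 ± 0.59). Their edgeR adjusted p values were 0.00066, 0.00095, 0.021 and 0.044, and the count was 2 of 7 without WT replicate 3, 2 of 6 without mutant vehicle replicate 2 and 2 of 8 without mutant vehicle replicate 3, since the filter then keeps other genes. Of all genes 14.7% were called lower between genotypes. With SHP099 none of the 6 passed, against 21.8% of all genes. In the blocked fit 2 were higher, against 12.5%. Mcpt1 stood at 8.57, 3.22 and 2.52 CPM with vehicle and 23.5, 11.4 and 11.3 CPM with SHP099, and in WT libraries at 5.57, 17.6 and 24.9 CPM. WT replicate 1 thus had the lowest Mcpt1 and the highest Mcpt4 of its group. Ctsg, the neutrophil protease gene in the chymase locus, stood at 1410 ± 51.6 CPM in WT, 1580 ± 90.3 in mutant vehicle and 1716 ± 150 in SHP099-treated cells. It was higher in treated mutant than in WT cells (0.28 ± 0.07; edgeR adjusted p = 0.014), where 3 of the 6 were lower, namely Tpsg1 (-1.45), Gzmb (-1.12) and Prss28 (-0.74). Over all genes 16.3% were lower there and 15.4% higher. The Ctsg call was lost without WT replicate 3 (adjusted p = 0.051), without SHP099 replicate 3 (0.073) and with the length and GC trend removed, without the block (0.091) or with it (0.10).

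Some of the other mast cell and basophil genes were called lower in mutant cells, and some were called higher with SHP099. Of 26 tested genes of this list 15 were lower in mutant than in WT vehicle cells, against 14.7% of all genes. None was higher, against 16.9%, and the median log2 fold change was -0.49. The smallest p values were those of Gata1, a transcription factor gene of mast, erythroid and megakaryocyte lineages (43.3 ± 5.5 against 86.6 ± 13.3 CPM in WT), the interleukin 33 receptor gene Il1rl1 (-0.79 ± 0.10), the leukotriene synthesis gene Alox5 (-0.69 ± 0.09) and the histamine synthesis gene Hdc (-0.79 ± 0.11), with edgeR adjusted p of 0.0006 to 0.0011. In the blocked fit with SHP099 14 of the 26 were higher, against 12.5% of all genes. Without the block 9 were higher and none lower (median 0.30), against 8.81% and 13%. They were led by the IgE receptor genes Fcer1a (1.33 ± 0.19) and Fcer1g (0.59 ± 0.12), the granule membrane gene Cd63 (0.53 ± 0.08) and the steroid synthesis gene Cyp11a1 (0.64 ± 0.13), with edgeR adjusted p of 0.0016 to 0.009. The count of 9 fell to 6 without SHP099 replicate 1 and to 7 without SHP099 replicate 3, and was 13 by DESeq2. Gata1, Il1rl1 and Alox5 did not pass with SHP099 in the main fit (edgeR adjusted p = 0.079, 0.086 and 0.058). Hdc did not pass there, with 128 ± 18.6 CPM in vehicle and 126 ± 14.9 CPM in SHP099 libraries. Nor did Kit (-0.01 ± 0.09; edgeR adjusted p = 0.97). In treated mutant against WT cells 2 of the 26 were higher and 10 lower, against 15.4% and 16.3% of all genes. Without WT replicate 3 or SHP099 replicate 2 the lower ones were 5 and 6. The lower genes with the smallest p were the integrin gene Itga2 (-1.36 ± 0.18), Hdc (-0.80 ± 0.11), Gata1 (-0.67 ± 0.12) and Il1rl1 (-0.54 ± 0.10).

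Genes whose products store or activate the proteases were called in both directions between genotypes, at shares near those of all genes. Ctsc encodes the dipeptidyl peptidase that removes the activation peptide of granule serine proteases, and it was higher in mutant than in WT vehicle cells, at 322 ± 65.7 against 188 ± 23.6 CPM (0.78 ± 0.17; edgeR adjusted p = 0.0072). Ctss, a lysosomal cysteine protease gene, was higher too (0.67 ± 0.18), and Ndst2, which encodes an enzyme of heparin sulfation, was lower (-0.33 ± 0.06), as was the lysosomal protease gene Ctsd (-0.35 ± 0.07). The other 11 of the 15 tested did not pass. Over all genes 16.9% were called higher and 14.7% lower. With SHP099 4 of the 15 were higher and none lower, namely Ctsd (0.47 ± 0.07), the serglycin gene Srgn (0.32 ± 0.08), Ndst2 (0.19 ± 0.06) and the lysosomal membrane gene Lamp1 (0.26 ± 0.08). Srgn had 943 ± 99.2 CPM in vehicle and 1180 ± 85.7 CPM in SHP099 libraries (edgeR adjusted p = 0.023). Of the 15, 1 was higher without SHP099 replicate 3 and 2 without mutant vehicle replicate 1. In the main fit 8.81% of all genes were higher with SHP099 and 13% lower. In treated mutant against WT cells 3 of the 15 were higher and 1 lower, against 15.4% and 16.3% of all genes.

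Genes of other cell types were called as well, in some lists at shares near those of all genes. In mutant against WT vehicle cells all 10 megakaryocyte genes and all 7 tested erythroid genes were lower, as were 3 of 8 eosinophil genes (1 higher), 6 of 14 neutrophil genes (1 higher) and 2 of 10 monocyte and macrophage genes (3 higher). Over all genes 14.7% were lower and 16.9% higher. With SHP099 4 of 14 neutrophil, 3 of 10 monocyte and macrophage and 2 of 10 megakaryocyte genes were higher, and 1 of 8 eosinophil genes was lower. The shares of all genes were 8.81% higher and 13% lower. In the blocked fit 7 of 14 neutrophil, 4 of 10 monocyte and macrophage and 7 of 10 megakaryocyte genes were higher, and of the 8 eosinophil genes 1 was higher and 1 lower. The blocked shares of all genes were 12.5% higher and 14.6% lower. None of the 7 tested erythroid genes passed in either fit. The summed level of the eosinophil genes was 559 to 632 CPM in WT libraries, 232 to 295 CPM in mutant vehicle libraries and 206 to 246 CPM in SHP099 libraries. The sum of the megakaryocyte genes was 3963 to 5011 CPM, 1762 to 2450 CPM and 2151 to 2883 CPM. The part of such shifts in the protease levels was not tested.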

How the data were processed

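Sequencing used TruSeq stranded mRNA libraries, per the labels' protocols. Tools named in the submitters' processing notes are STAR, Subread, featureCounts and FastQC, with mm10 as the build. Not given in the sources used here are versions, the annotation and whether counting used strand. The authors deposited raw counts per gene symbol in 9 columns. The last column's name differs from its sample title in 1 character and was matched as the sole sample of that genotype, number and treatment.

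From these counts, edgeR 4.0.16 in R 4.3.3 kept 13270 genes (filterByExpr by group, minimum count 10) and left out 11151. After TMM scaling, all 9 libraries entered 1 quasi-likelihood fit with a term for each group. Tests were two-sided with Benjamini-Hochberg adjustment over all genes tested in a comparison, at 0.05. Log2 fold changes carry their SE, and levels are CPM as mean ± SD. Counts of replicates differed beyond sampling noise. Chi-square per degree of freedom was 116 and 113 for SHP099 replicate 3 against replicates 1 and 2 of its group, and 11.1 to 25.8 otherwise. For WT cells nothing names separate animals, so the p-values reflect spread among the samples as labelled, which may be technical. Replicate numbers come from the sample titles. Deviations of same-numbered mutant libraries from their group means correlated at 0.54, 0.6 and 0.56, and those of different numbers at -0.36 to -0.23. With deviations from a group mean, positive values for the same number force negative ones for the others, which add no support. The numbers were therefore taken to pair the mutant libraries, though a correlation does not show whether a pair shares a mouse, a culture or its handling. In the block WT libraries kept their own mean for SHP099 against vehicle.

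Lengths and GC content (23376 symbols) are those of the longest coding transcript in GENCODE M21, and the trend removed per library was a lowess curve of span 0.3. The alternatives were RLE scaling, DESeq2 1.42.0, no filter, at least 1 CPM in 3 libraries, the 2 compared groups alone, the block, the trend with and without the block, and each library left out. Tested on simulated data for SHP099 against vehicle (13147 genes, 200 changed by 1 log2 unit), the fit recovered 99.5% of changed genes with 4.33% of calls false. Changed genes were drawn from better expressed ones, which leaves out genes as low as Tpsab1. Simulated libraries shared no effect of replicate number, so this is not the recovery for the 8 genes. The 8 genes were always named. Of each other list, up to 4 called genes with the smallest p per comparison were eligible, and for likeness the 3 nearest. Kit, Hdc, Ctsg and Mcpt1 were singled out after their values were seen. The members and lists were chosen with earlier results of these data known. TATAAA was searched after the sequences were seen. The alternatives for the other lists and for Ctsg, and the counts leaving Tpsab1 aside, were added after seeing the data.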

Additional observations from a re-analysis of the deposited data

How the results depend on the processing

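With the replicate pairs as a block, 7 of the 8 genes were called with SHP099 in place of 3. In the other alternatives this count was 2 to 4, and 2 to 4 over the fits with 1 library left out. For mutant against WT vehicle it was 6 to 8 around 7, and for treated mutant against WT 3 or 4 around 3. No called fold change of a protease turned its direction under the 17 alternatives. Single genes lost their call 9 times and gained it 13 times over all comparisons and alternatives. With the number as a block over all libraries, although WT libraries share only a number with the mutant ones, Mcpt8 passed for mutant against WT (adjusted p = 0.014) and Mcpt4 for treated mutant against WT (adjusted p = 0.0072). Mcpt8 also passed with the 2 vehicle groups fitted alone (adjusted p = 0.046). Over all genes 2890 passed with SHP099, 3598 with the block and 1767 without SHP099 replicate 3. The share called higher of all calls moved from 1169 of 2890 to 1322 of 2895 by RLE scaling, and for mutant against WT from 2248 of 4199 to 1908 of 4006. Tpsab1 had the lowest counts of the 8, at most 19 in a mutant library. The cause of these changes was not tested.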
